A study of Mus musculus with 7 samples.

Results

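0610040J01Rik is a mouse protein-coding gene with no descriptive name of its own, and its UMI counts (unique molecular identifiers, each counting 1 captured mRNA molecule) were followed here in 7 single-cell libraries. It was chosen because earlier results of these libraries showed it raised in several glial types of the cKO libraries and high in microglia of all groups. Its values in those contrasts are therefore given as a description, with no test. The tissue was the ventricular-subventricular zone (V-SVZ) of the lateral ventricle walls of mice aged 31 to 33 days, the region where adult neural stem cells (NSCs) lie. The 3 control libraries came from mice with floxed Prdm16 alleles and no Cre, labelled Prdmflox/flox. The 3 cKO libraries carried hGFAP-Cre+/- and Prdm16flox/flox, and the 1 DKO library carried hGFAP-Cre+/-, Prdm16flox/flox and Vcam1flox/flox, so the floxed Prdm16 alleles were shared by all groups. hGFAP-Cre is driven by the human GFAP promoter and acts in radial glia, so neurons and macroglia descended from those cells can be recombined while microglia come from another lineage. Each library pooled 2 to 3 mice of 1 genotype, males and females together, so a replicate is a pool and not a mouse.

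The human orthologue, C4orf19, has a later name, PGCKA1, that refers to its association with PDCD10 and the GCKIII kinases. PDCD10, also called CCM3, is an adaptor that binds the GCKIII kinases STK24, STK25 and STK26, works with KRIT1 and CCM2 in endothelial cells, and joins the striatin-containing phosphatase complex. Little is known of the mouse gene in the brain. In the GENCODE vM21 annotation of GRCm38 it is ENSMUSG00000060512, on chromosome 5 from 63812363 to 63899625 on the plus strand, with 4 transcripts. The longest has 4 exons and 313 coding codons. No other GENCODE gene overlapped it, while in RefSeq the 3′ part overlaps Rell1.

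A promoter window of the gene, 300 bases at chr5:63812245-63812544 on the plus strand of GRCm38.p6, is shown because the transcript was found in cell types of unrelated origin. The window holds the GENCODE start at 63812363, while the RefSeq start of the gene lies further upstream. Capitals mark a GC box, the E-box CACGTG and a CCAAT box.

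0610040J01Rik promoter: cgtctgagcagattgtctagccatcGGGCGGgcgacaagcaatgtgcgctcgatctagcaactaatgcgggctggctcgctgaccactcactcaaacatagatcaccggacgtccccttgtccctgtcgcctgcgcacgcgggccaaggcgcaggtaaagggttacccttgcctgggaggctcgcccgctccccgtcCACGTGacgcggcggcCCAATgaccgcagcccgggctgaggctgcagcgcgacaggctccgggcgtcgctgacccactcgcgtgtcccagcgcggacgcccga

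The window had a GC content of 67.3% and 35 CpG dinucleotides. On either strand, CACGTG was present in 7.15% of the 32851 mouse promoters of this length, CCAAT in 37.4% and the GC box GGGCGG in 35.7%. The letters GAGGAAGT, TGACTCA and CCGGAAG, also searched on both strands, had 0 matches in it.

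The libraries held 45758003 to 141353017 UMIs, and 43346 cells with 500 to 7000 detected genes and at most 10% mitochondrial counts were kept. Between 1868 cells (cKO 2) and 9502 cells (control 3) were kept per library. The file headers name Cell Ranger 6.0.1 for control 1, control 2, cKO 1 and cKO 2, and 6.1.1 for control 3, cKO 3 and DKO 1. Kept cells shared at most 1.48% of their barcodes between any pair of libraries. Levels are CPM, the UMIs of a gene summed over all cells of a type in a library and scaled to the summed UMIs of those cells. In NSCs Prm1, whose 3′ end is part of the Cre transgene, was at 0 to 0.215 CPM in controls, 152 to 433 CPM in cKO libraries and 157 CPM in DKO 1, as the genotype labels state. Prdm16 in NSCs was at 74.0, 62.7 and 68.2 CPM in control 1, 2 and 3, at 54.7, 51.1 and 46.4 CPM in cKO 1, 2 and 3, and at 56.1 CPM in DKO 1. Since 3′ ends were counted and may lie outside the floxed part, this does not check the deletion.

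0610040J01Rik was a low-abundance transcript. The 7 libraries held 2790 of its UMIs in all barcodes and 1887 in the kept cells. It was seen in 1573 of 43346 cells (3.63%), of which 1324 held 1 UMI, 201 held 2 and 48 held 3 or more. Cell types were clusters named from at least 3 of 8 markers of the type. All 8 passed in NSCs, microglia, OPCs, oligodendrocytes, ependymal cells and TAPs, 7 passed in astrocytes, and 1 of the 2 neuroblast clusters passed with 3. NSCs and astrocytes shared markers, with 7 astrocyte markers passing in the NSC cluster and 4 NSC markers in the astrocyte cluster. A marker gate, giving each cell the type with most markers detected, drew the line between them elsewhere. It gave 314 NSCs and 521 astrocytes in cKO 3, against 666 and 282 by cluster. In control 3 it gave 1032 and 503, against 1308 and 484. The 2 clusters may thus differ in make-up between the groups, and the part of this in the differences below was not tested. Intervals cover counting error only.

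In the control libraries, microglia, the resident macrophages of the brain, had the highest level of the 11 cell types. It was 68.8 CPM in control 1, 99.7 CPM in control 2 and 56.4 CPM in control 3, with a mean of 75.0 ± 22.3 CPM (SD, n = 3). Oligodendrocyte precursor cells (OPCs) followed at 24.3, 35.3 and 21.3 CPM, and astrocytes, the glia that support neurons, at 6.80, 12.2 and 5.90 CPM. The ranges of these 3 types did not overlap with each other or with that of the next type, oligodendrocytes.

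Oligodendrocytes, the myelinating cells, held 2.90 ± 0.503 CPM (SD, n = 3), NSCs 1.83 ± 0.703 CPM and ependymal cells, the ciliated lining of the ventricle, 1.06 ± 0.232 CPM. From oligodendrocytes downwards each type overlapped the next in the order. Mural cells, endothelial cells, transit amplifying progenitors (TAPs), neuroblasts and neurons each averaged under 1 CPM. Neurons held 6 UMIs of the gene in 2151 cells over all libraries. At a finer clustering, a cluster led by Igkc, Cd74 and H2-Aa, genes of lymphocytes and antigen-presenting cells, held 0 UMIs in 83 cells, which allows a share of cells with a UMI of up to 3.61%.

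**Figure D1:**
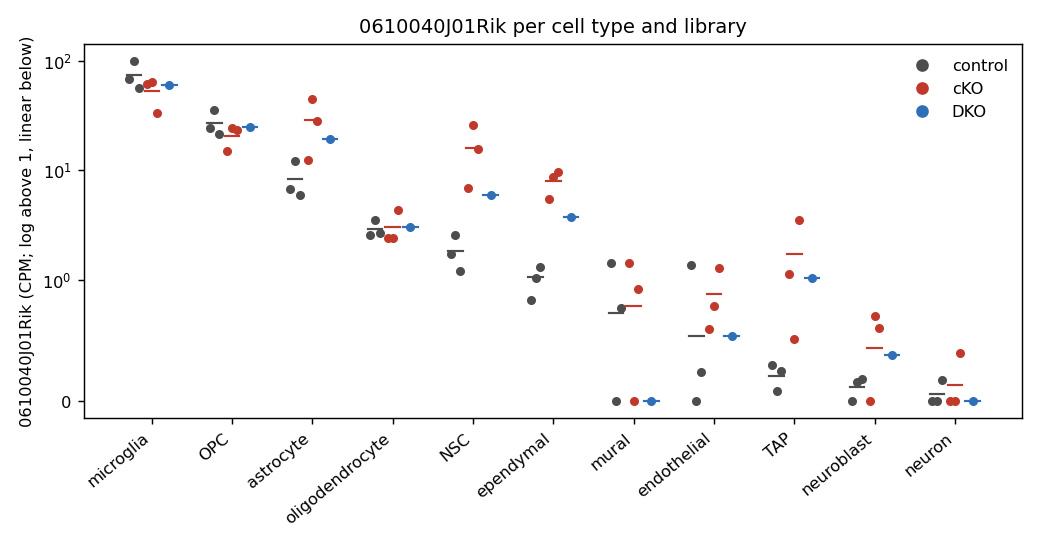
0610040J01Rik in CPM of summed UMIs (vertical axis, logarithmic above 1 and linear below) for 11 cell types in order of their control mean. Each point is 1 library (3 control, 3 cKO, 1 DKO) and each short line a group mean. Microglia have the highest mean in each group, and the cKO points of NSCs and ependymal cells lie above all control points.

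By share of cells, 23.1%, 43.8% and 24.0% of microglia had at least 1 UMI in control 1, 2 and 3, against 1.05%, 2.48% and 0.994% of NSCs. In neurons, the type with the lowest level, the share was between 0% and 0.270% in the controls. Their median depth there was 9188.5 to 15826 UMIs per cell, against 5338 to 9475 in NSCs and 3733 to 5912.5 in microglia. Control 2 had the highest share in microglia, OPCs, astrocytes and NSCs, and the highest median depth in each of them. With each cell thinned to 2000 UMIs, the share was 10.7% to 18.8% in control microglia and 0.244% to 0.655% in control NSCs. The thinning left out 138 of 582 control microglia and 82 of 2893 control NSCs.

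Within the OPCs the transcript was uneven. At a finer clustering resolution of 0.3 the lineage split into a cluster led by Pdgfra, the receptor for platelet-derived growth factor that marks precursors, and one with Bmp4 and Gpr17 among its leading genes, which mark committed precursors. The 901 cells of the Pdgfra-led cluster held 66.6, 80.9 and 46.6 CPM in control 1, 2 and 3, 41.1, 76.1 and 45.5 CPM in cKO 1, 2 and 3, and 44.8 CPM in DKO 1. Control and cKO libraries overlapped there, and the range overlapped that of the microglia cluster at the same resolution, which was 35.8 to 106.6 CPM.

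The 1535 cells of the Bmp4 and Gpr17 cluster held 1.45 to 5.68 CPM over the 7 libraries, below the Pdgfra-led cluster in each of them. Its controls held 1.45, 2.13 and 2.72 CPM and its cKO libraries 4.27, 3.33 and 5.68 CPM. These rest on 4, 3 and 13 UMIs in the controls and 12, 3 and 13 UMIs in the cKO libraries, with counting intervals that overlapped. Among mature oligodendrocytes, a cluster led by Ptgds and Opalin held 2.08 to 5.60 CPM and one led by Klk6 held 0.856 to 2.35 CPM. The clusters were drawn from the same cells, though without this gene among the features, so their differences are given without a test.

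**Figure D2:**
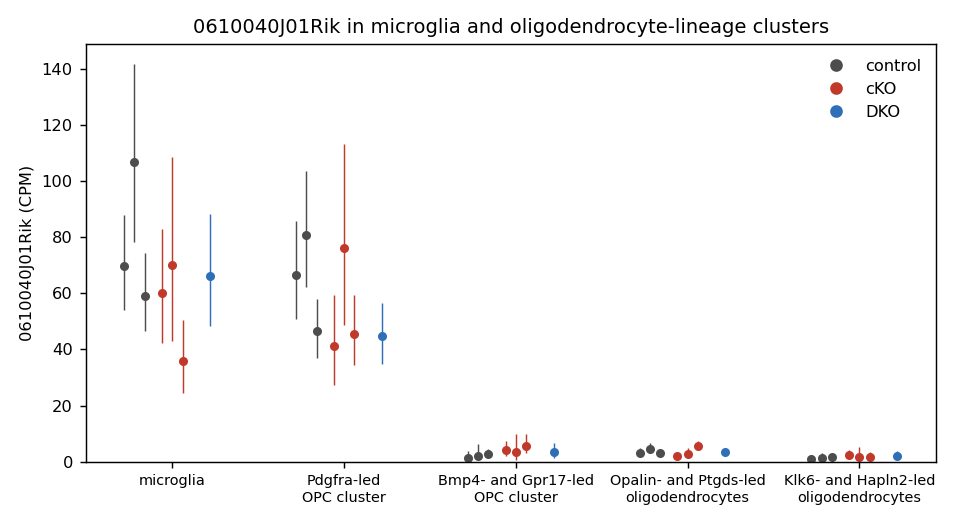
0610040J01Rik in CPM (vertical axis, from 0) in microglia and 4 clusters of the oligodendrocyte lineage at resolution 0.3. Points are libraries, coloured by group, and bars are exact 95% Poisson intervals. The Pdgfra-led OPC cluster, at 41.1 to 80.9 CPM, lies in the range of microglia, and the other 3 lineage clusters are at 5.68 CPM or less.

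Microglia and border macrophages, which line the vessels and meninges, shared 1 cluster. The 66 cells with at least 3 border macrophage markers (such as Mrc1, Pf4 and Cd163) held 6 UMIs, or 16.1 CPM (exact 95% Poisson interval 5.92 to 35.1). The other 1024 cells held 325 UMIs, or 63.1 CPM (56.5 to 70.4). These are cells pooled over libraries, so the intervals hold no spread between libraries.

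The main contrast of the study asked what changes with loss of Prdm16, a chromatin regulator. In NSCs, 0610040J01Rik was at 1.71, 2.58 and 1.19 CPM in control 1, 2 and 3, from 12, 12 and 13 UMIs, and at 6.90, 25.9 and 15.5 CPM in cKO 1, 2 and 3, from 41, 72 and 123 UMIs. Every cKO library lay above every control library, with cKO 1 the lowest and cKO 2 the highest. The fitted log2 fold change of cKO over control was 3.27 ± 0.52 (SE, edgeR).

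In ependymal cells the level was 0.831, 1.04 and 1.29 CPM in the controls, from 3, 1 and 10 UMIs, and 5.47, 8.73 and 9.58 CPM in the cKO libraries. The groups again did not overlap, and the log2 fold change was 2.83 ± 0.47 (SE). In TAPs, the dividing progeny of NSCs, the controls held 4, 1 and 5 UMIs (0.299, 0.0815 and 0.245 CPM) and the cKO libraries 12, 2 and 25 UMIs (1.13, 0.515 and 3.52 CPM). These groups did not overlap either, but cKO 2 rests on 2 UMIs. The log2 fold change was 3.08 ± 0.74 (SE). The pooled TAP ratio of cKO over control was 8.33, with an exact 95% counting interval of 4.08 to 18.7.

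In astrocytes the controls held 6.80, 12.2 and 5.90 CPM and the cKO libraries 12.3, 45.0 and 28.2 CPM. The lowest cKO library and the highest control were nearly level, and the log2 fold change was 1.75 ± 0.44 (SE). In all 4 of these types cKO 1 was below cKO 3. So 4 of the 7 types fitted had every cKO library above every control. Among all genes tested this held for 6.91% in NSCs, 7.36% in astrocytes, 5.66% in ependymal cells and 4.40% in TAPs. The gene was chosen on this contrast, so nothing is read from the count. The groups overlapped in astrocytes when cells were chosen by a marker gate, at up to 11.9 CPM in controls and from 9.82 CPM in cKO libraries. At 5% mitochondrial counts the lowest cKO library was at 0 CPM in ependymal cells and in TAPs, so these overlapped too. In NSCs the groups did not overlap under either setting.

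With cells thinned to 2000 UMIs, the share of NSCs with the transcript was 0.244% to 0.655% in controls and 1.08% to 5.43% in cKO libraries. In astrocytes it was 1.09% to 2.31% in controls and 2.57% to 7.76% in cKO libraries. Neither range overlapped between the groups. Since most cells with the transcript held 1 UMI, this share follows the mean level, and more cells with the transcript and more transcript per cell cannot be told apart.

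Microglia and OPCs, the types with the most transcript in controls, had fitted values below 0. Microglia of cKO 1, 2 and 3 held 60.9, 64.0 and 33.2 CPM, and the log2 fold change was -0.43 ± 0.28 (SE). OPCs of the cKO libraries held 15.0, 24.1 and 23.2 CPM, with a log2 fold change of -0.25 ± 0.25 (SE). Oligodendrocytes held 2.58, 3.48 and 2.65 CPM in the controls and 2.42, 2.40 and 4.35 CPM in cKO 1, 2 and 3. Their log2 fold change was 0.16 ± 0.34 (SE), and -0.20 without cKO 3. In all 3 types the groups overlapped, and every cKO library lay above every control for 2.48% of the genes tested in microglia, 2.08% in OPCs and 1.90% in oligodendrocytes. Every cKO library lay below every control for more genes, 702 of 9801 in microglia, 1261 of 12534 in OPCs and 679 of 14030 in oligodendrocytes.

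Because microglia carry this transcript at a high level, microglial RNA in other cell types was measured beside it. The summed level of the 8 microglia markers was 27433 to 32826 CPM in the microglia cluster. In NSCs it was 52.2 to 66.3 CPM in controls and 42.6 to 47.0 CPM in cKO libraries. In astrocytes it was 50.1 to 79.8 CPM in controls and 40.4 to 67.1 CPM in cKO libraries, and in ependymal cells 45.8 to 66.4 and 40.2 to 74.9 CPM. In TAPs it was 20.3, 35.8 and 19.3 CPM in the controls and 33.8, 14.4 and 58.5 CPM in cKO 1, 2 and 3, so cKO 3 was highest in both the list and 0610040J01Rik.

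Among the controls, control 2 was highest both in the list and in 0610040J01Rik in NSCs and in astrocytes. In OPCs and oligodendrocytes control 2 was highest in 0610040J01Rik and lowest in the list, and in TAPs the reverse. Among cKO astrocytes, cKO 2 was highest in 0610040J01Rik and lowest in the list. In cells with no UMI of the list, the log2 fold change was 3.29 in NSCs, 2.04 in astrocytes, 2.41 in ependymal cells and 2.65 in TAPs. In those TAPs the mean was 0.158 CPM in controls and 1.12 CPM in cKO libraries, the latter down from 1.72 CPM over all TAPs. The part of microglial RNA in the levels themselves was not tested.

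The Cell Ranger version differed between libraries within the control and the cKO group. Within version 6.0.1 the NSC level was 2.06 CPM in the 2 controls pooled and 12.96 CPM in the 2 cKO libraries pooled. Within version 6.1.1 it was 1.19 CPM in control 3 and 15.5 CPM in cKO 3. In astrocytes the difference of cKO and control was 1.29 on the log2 scale in 6.0.1 and 2.26 in 6.1.1. In OPCs its direction differed between versions, at -0.68 in 6.0.1 and 0.12 in 6.1.1, as it did in oligodendrocytes, at -0.30 and 0.72.

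**Figure D3:**
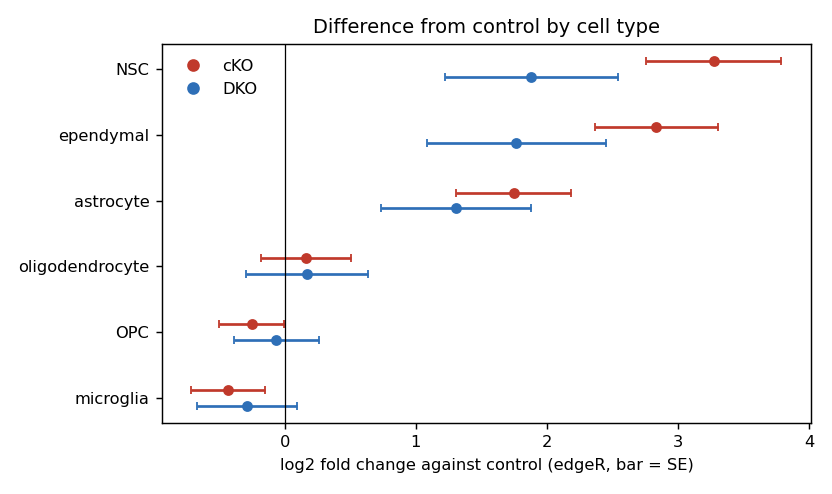
Log2 fold change of 0610040J01Rik against control (horizontal axis) from the edgeR fit in 6 cell types, for cKO and DKO, with SE as bars and 0 marked. In NSCs, ependymal cells and astrocytes the cKO values are 1.75 to 3.27 and the DKO values 1.31 to 1.88, while microglia, OPCs and oligodendrocytes lie between -0.43 and 0.17.

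The DKO library adds floxed alleles of Vcam1, an adhesion molecule of NSCs. Vcam1 was at 89.96 CPM in NSCs of DKO 1 and at 154.5, 129 and 108.6 CPM in those of control 1, 2 and 3, and the limit on 3′ counts given for Prdm16 holds here too. In it, 0610040J01Rik was at 5.99 CPM in NSCs, 19.5 CPM in astrocytes, 3.71 CPM in ependymal cells and 1.03 CPM in TAPs, each above all 3 controls, which the choice of the gene had used. In NSCs and ependymal cells it was also below all 3 cKO libraries, but its counting interval overlapped that of cKO 1, at 4.52 to 7.78 against 4.95 to 9.36 CPM in NSCs and 1.78 to 6.82 against 3.29 to 8.54 CPM in ependymal cells. The choice of the gene used the counts of all 7 libraries, and DKO is 1 library, so these values are a description, with no test. The share of all genes with DKO 1 placed in this way was not computed, so nothing is read from the order of the libraries. The log2 fold change of DKO over control was 1.88 ± 0.66 (SE) in NSCs, 1.31 ± 0.57 in astrocytes and 1.77 ± 0.68 in ependymal cells, with the SE taken from the spread of the other groups. In TAPs the pooled ratio was 4.76 from 17 and 10 UMIs, with an exact 95% counting interval of 2.06 to 11.6.

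In microglia, OPCs and oligodendrocytes the DKO library held 60.2, 24.8 and 3.04 CPM, within the control range of each type. Their log2 fold changes were -0.29 ± 0.38, -0.07 ± 0.32 and 0.17 ± 0.47 (SE).

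Prm1 UMIs mark cells that carry Cre transcripts, which allowed a comparison within each Cre library. The choice of the gene did not use this split, though it used the counts of the same libraries. A cell without a Prm1 UMI may still be recombined, so marked and unmarked cells do not stand for deleted and undeleted ones. Microglia, outside the lineage of hGFAP-Cre, held 3.20 to 17.7 CPM of Prm1 in the Cre libraries, against 152 to 433 CPM in NSCs. In OPCs with a Prm1 UMI 0610040J01Rik was at 25.4, 54.5 and 37.9 CPM in cKO 1, 2 and 3 and at 43.1 CPM in DKO 1. In OPCs without one it was at 13.2, 9.28, 13.8 and 16.9 CPM. Marked OPCs were higher in 4 of 4 libraries, with a difference of 1.58 ± 0.691 on the log2 scale (SD, n = 4).

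At resolution 0.3, all 901 cells of the Pdgfra-led cluster were among these OPCs, as were 672 of the 1535 cells of the cluster with Bmp4 and Gpr17, of which another 860 were oligodendrocytes. Of the marked OPCs in the Cre libraries, 194 were in the Pdgfra-led cluster, where 0610040J01Rik was higher, and 29 in the other. Of the unmarked OPCs, 246 were in the Pdgfra-led cluster and 293 in the other, so 44.1% and 9.01% of the OPCs there were marked. Within the Pdgfra-led cluster, marked cells held 36.0, 77.1 and 43.2 CPM of 0610040J01Rik in cKO 1, 2 and 3 and 50.3 CPM in DKO 1, and unmarked cells 43.5, 71.6, 51.1 and 40.0 CPM. Marked cells were higher in 2 of 4 libraries, with a difference of -0.02 ± 0.29 on the log2 scale (SD, n = 4), and cKO 2 had only 8 unmarked cells. Among the OPCs of the cluster with Bmp4 and Gpr17, the marked cells held 0, 0, 5 and 3 UMIs of the gene in cKO 1, 2, 3 and DKO 1, and the pooled level was 12.4 CPM in marked and 3.36 CPM in unmarked cells. These few UMIs leave the difference there unresolved by library.

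Marked astrocytes were higher in 4 of 4 libraries too, by 0.42 ± 0.272 on the log2 scale (SD), and in cKO 3 by 0.03 alone. With at least 2 Prm1 UMIs as the mark they were higher in 3 of 4, by 0.35 ± 0.43 (SD). Unmarked astrocytes of cKO 1, 2 and 3 held 10.9, 35.7 and 27.8 CPM, against 6.80, 12.2 and 5.90 CPM in astrocytes of control 1, 2 and 3. Marked NSCs held 15.7, 23.1 and 16.7 CPM in cKO 1, 2 and 3 and 10.4 CPM in DKO 1, against 1.85, 39.5, 9.45 and 2.19 CPM in unmarked NSCs. They were higher in 3 of 4 libraries, by 1.35 ± 1.69 on the log2 scale (SD), and lower in cKO 2. The NSC difference was 0.764 without cKO 1 and 2.05 without cKO 2.

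The planned exact two-sided sign-flip permutation test in these 3 types cannot pass a threshold of 0.05 with 4 libraries, whatever the counts. The choice of the gene had also used the counts of these libraries. The p-values of that test are therefore not given, and the differences between marked and unmarked cells are a description. Marked NSCs and astrocytes were deeper than unmarked ones in every Cre library, with a median of 14180 UMIs against 7675 in NSCs of cKO 2. Marked OPCs were deeper in cKO 1, cKO 3 and DKO 1 and shallower in cKO 2. With cells thinned to 2000 UMIs, the difference was 1.06 in OPCs, 0.26 in astrocytes and 1.39 in NSCs. The Prm1 mark was still set at full depth there, so its own dependence on depth was not removed.

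**Figure D4:**
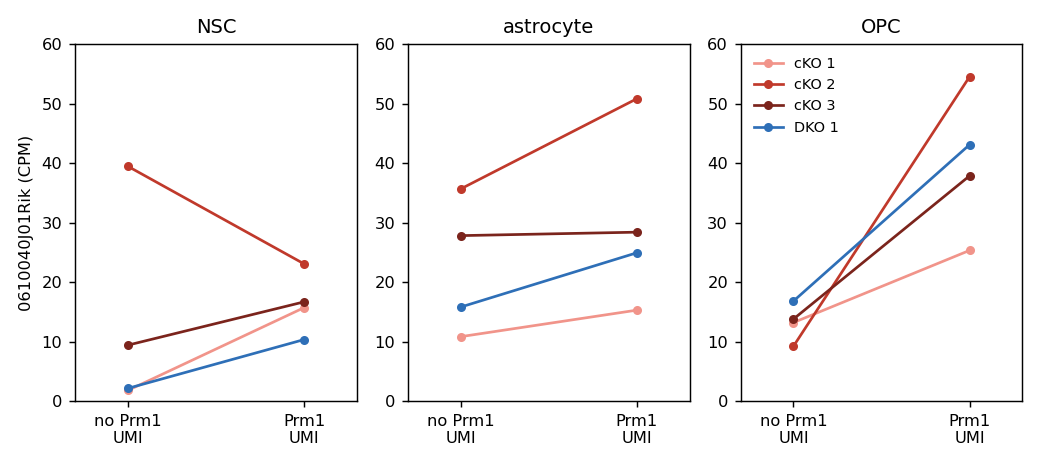
0610040J01Rik in CPM (vertical axis, from 0) in cells without and with a Prm1 UMI, joined within each of the 4 Cre libraries, for NSCs, astrocytes and OPCs. Lines rise in all 4 libraries for OPCs and astrocytes and in 3 for NSCs, where cKO 2 falls from 39.5 to 23.1 CPM. Within the Pdgfra-led cluster of the OPCs, marked cells are higher in 2 of 4 libraries.

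The neighbours on chromosome 5 were compared to see whether the difference extended along the chromosome. The list held the 5 nearest protein-coding genes on each side in RefSeq and the overlapping Rell1, of which 9 were in the files. Pgm2 and Tbc1d1 lay 193 and 257 kb away, Klf3 904 kb, Arap2 1045 kb and Pcdh7 5678 kb. The list thus reached far beyond the near surroundings of the gene. In NSCs 6 passed the filter on low counts and 0 were called between cKO and control by edgeR, where 0.200% of all genes tested were, and 0 had an unadjusted p under 0.05, where 13.7% of all genes did. DESeq2 called 0 as well. Their log2 fold changes in NSCs ran from 0.05 ± 0.20 (SE) for Arap2 to 0.62 ± 0.33 for Tbc1d1, with a median of 0.33 against -0.01 over all genes tested.

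Rell1, which overlaps the 3′ part, was at 8.10, 10.98 and 6.98 CPM in control NSCs and 8.08, 10.8 and 13.5 CPM in cKO NSCs, so its groups overlapped. Its level was far higher in OPCs, at 111 to 197 CPM. Nwd2, the nearest neighbour upstream at 1.11 kb from the RefSeq start of the gene, was at 0 to 0.379 CPM in NSCs. In astrocytes 0 of 6 tested neighbours were called, where 1.29% of genes were, and 1, Rell1, had an unadjusted p under 0.05, where 10.0% of all genes did. In ependymal cells 0 of 7 were called, where 0.151% of genes were, and in TAPs, OPCs, oligodendrocytes and microglia 0 of 6 were, where 0% of genes were. In these 5 types 0 of the neighbours had an unadjusted edgeR p under 0.05, which 266 (oligodendrocytes) to 1190 (ependymal cells) of all genes had.

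The name of the human orthologue refers to PDCD10 and the GCKIII kinases STK24, STK25 and STK26. Their mouse genes were taken as part of a wider list of 23 genes, the others being added here. It covers the adaptor Pdcd10, the kinases Stk24, Stk25 and Stk26, the cavernous malformation genes Krit1, Ccm2 and Heg1, and the striatin and phosphatase subunits. In NSCs 21 were tested and 0 were called by edgeR, with 4 at an unadjusted p under 0.05 (19.0%, against 13.7% of all genes tested) and 0 called by DESeq2. Their median log2 fold change was 0.00, against -0.01 over all genes tested. The highest log2 fold change in NSCs was that of Strip2, a scaffold of the striatin complex, at 1.12 ± 0.49 (SE), and the lowest that of the kinase Map3k3 at -0.64 ± 0.24.

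Pdcd10 itself was at 0.16 ± 0.15 (SE) in NSCs. In astrocytes Strip2 was again highest at 1.12 ± 0.38 (SE), with 0 of 21 tested called and 1 at an unadjusted p under 0.05 (4.76%, against 10.0% of all genes tested). In ependymal cells and TAPs 0 of 22 tested were called, in oligodendrocytes 0 of 21 and in microglia and OPCs 0 of 20, with 0 at an unadjusted edgeR p under 0.05 in each, where 1.90% (oligodendrocytes) to 8.57% (ependymal cells) of all genes were. Without cKO 1, 3 of 21 members were called in NSCs (14.3%), where 11.3% of all genes were.

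Over the 11 cell types in controls, the gene whose mean log2(CPM + 1) followed 0610040J01Rik most closely among 15337 was Scamp2, a membrane protein of secretory carriers, with Pearson r = 0.926. Nav2 had r = 0.910, Snx24 r = 0.901 and Lgmn, a lysosomal protease, r = 0.893. The tenth was Mtdh, with r = 0.891. Scamp2 was at 449, 446 and 437 CPM in control microglia and at 128, 166 and 125 CPM in control OPCs. The 11 points share libraries, and microglia stand apart among them.

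Over 70 sums of a type in a library outside microglia, centred within type, the closest of 12455 genes was Gfra2, a receptor for neurturin, with r = 0.813. Reep1 followed with r = 0.811, Cp, the copper-binding ceruloplasmin, with r = 0.788 and Aldh1a1, a retinaldehyde dehydrogenase, with r = 0.783. Gfra2 was at 0.569, 1.72 and 0.643 CPM in control NSCs and at 10.4, 40.7 and 42.6 CPM in cKO NSCs, and its groups did not overlap there. These genes were picked for following a gene chosen on the cKO contrast, so nothing is read from their levels in it.

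Many UMIs of the gene lay in barcodes that the cell filter removed. Of its UMIs in all barcodes, the filter removed 14.1% in controls, 44.7% in cKO libraries and 20.7% in DKO 1, against 25.8%, 36.1% and 16.05% of the UMIs of all genes. In cKO 2, 236 of its UMIs were in 210 barcodes with over 7000 genes, and 204 in the 1868 kept cells, which was 13.4 and 8.82 CPM. Their part in the results above was not tested.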

How the data were processed

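The authors' deposited values are raw UMI counts per gene and barcode, made with Cell Ranger on mm10, with no normalization; the submitters' processing notes name version 6.1.1, and the headers 6.0.1 or 6.1.1. Cells with 500 to 7000 genes and at most 10% mitochondrial counts were kept. They were integrated in Seurat 5.3.0 (2000 variable features without 0610040J01Rik, 30 principal components, resolution 0.15) after the study's Methods. A cluster was named when at least 3 of 8 markers of 1 type were detected in 10% of its cells and raised by 1 on the log2 scale. After the clusters were seen, tied and shallow clusters were left unnamed, 5239 cells in all, as was, at resolution 0.3, 1 led by replication genes. Cluster edges moved with the thread settings of the numerical library: in an earlier run with other settings the astrocyte groups overlapped and part of the TAPs stood as a cluster of their own. Scrublet (scanpy 1.11.5) marked 1043 doublets, which were kept and left out in an alternative.

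Counts were summed per library and type with at least 10 cells and fitted with edgeR 4.0.16 (filterByExpr, TMM, robust quasi-likelihood test, 3 groups, Benjamini-Hochberg, threshold 0.05). The fit was also run on simulated NSC sums with a fixed dispersion, which does not cover the spread of this gene. The SE of an edgeR value is its absolute log2 fold change divided by the square root of its F statistic, since edgeR gives none. The gene passed the filter in 7 types. A planned test of the gene in DKO over control is not reported, since its choice used the counts of all libraries and DKO is 1 library. The members and lists were chosen with earlier results of these data known. Named genes were 0610040J01Rik, Prdm16, Vcam1, Prm1, the neighbours, list members called or with the largest or smallest fold change, and the 10 best correlated genes of each kind. P-values measure the spread between pools. Same-numbered control and cKO libraries deviated together (correlation over 0.1 in all 3 pairs) only in oligodendrocytes (0.16 to 0.44) and endothelial cells (0.12 to 0.38). Pairs 1 and 3 did so too in NSCs (0.25 and 0.35), astrocytes (0.21 and 0.33) and ependymal cells (0.25 and 0.32), where pair 2 was under 0.1. Nothing in the labels ties the numbers to a shared litter or day. The alternatives were DESeq2 1.42.0, no filter, replicate block, each library left out, 5% mitochondrial counts, no doublets, resolution 0.3, a marker gate, cells with no microglia marker and total counts; those on the Cell Ranger version and the Pdgfra-led OPC cluster, and the calls without microglia markers, were added after seeing the data.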

Additional observations from a re-analysis of the deposited data

Results flagged for a closer look

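A signal was present in barcodes that the comparisons do not use. In barcodes with over 7000 detected genes and at most 10% mitochondrial counts, 0610040J01Rik was at 2.07, 2.34 and 1.38 CPM in control 1, 2 and 3. It was at 6.53 CPM in cKO 1, 13.4 CPM in cKO 2, 10.5 CPM in cKO 3 and 6.90 CPM in DKO 1, above the highest control in each. Their cell types and the share of doublets among them were not tested. The gene was chosen on the cKO contrast, and the share of all genes with this order in these barcodes was not computed, so nothing is read from it.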

How the results depend on the processing

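In NSCs, astrocytes, ependymal cells and TAPs, the log2 fold change of 0610040J01Rik in cKO over control was above 0 under every alternative that gave a value. Ependymal cells gave none at 5% mitochondrial counts, and TAPs none without the DKO library or with 6.0.1 libraries only, where the gene was below the filter. Leaving out 1 library gave 2.82 to 3.66 in NSCs, 1.40 to 2.12 in astrocytes, 2.59 to 3.22 in ependymal cells, 2.07 to 3.42 in TAPs, -0.37 to -0.05 in OPCs, -0.60 to -0.15 in microglia and -0.20 to 0.36 in oligodendrocytes. The value moved by more than the spread between replicates in oligodendrocytes with 6.0.1 libraries only (-0.25) and in ependymal cells with no microglia-marker UMI (2.41). For DKO over control it turned in microglia (0.10) and oligodendrocytes (-0.080) when the version was blocked, and in OPCs with the replicate block (0.23), at resolution 0.3 (0.041) and without control 2 (0.13). With the replicate block it moved by more than that spread in NSCs (2.67), astrocytes (2.12) and ependymal cells (2.39). In these types pairs 1 and 3 of control and cKO libraries deviated together and pair 2 did not, so the numbers were not shown to pair all libraries. Leaving out 1 library gave 1.64 to 2.15 in NSCs and -0.18 to 0.13 in OPCs. The causes were not tested.

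The number of genes called between cKO and control was 29 in NSCs, 156 in astrocytes, 21 in ependymal cells and 0 in TAPs, OPCs, oligodendrocytes and microglia. With DESeq2 it was 527 in NSCs, 109 in ependymal cells, 99 in TAPs, 4 in oligodendrocytes and 1 in OPCs. With no filter it was 519 in NSCs, 438 in astrocytes, 375 in ependymal cells, 251 in TAPs, 8 in microglia, 11 in OPCs and 2 in oligodendrocytes. With the replicate block it was 662 in NSCs, 496 in astrocytes, 250 in ependymal cells, 97 in TAPs, 14 in microglia, 10 in oligodendrocytes and 10 in OPCs. With total counts it was 145 in NSCs, 59 in ependymal cells and 2 in TAPs. With the version as a block it was 46 in NSCs, 58 in ependymal cells and 1 in oligodendrocytes. With 6.0.1 libraries only it was 2 in NSCs, 28 in astrocytes, 0 in ependymal cells and 1 each in TAPs, microglia and OPCs. In NSCs it was 2 without the DKO library, and 0 at 5% mitochondrial counts and by the marker gate, which gave 10 and 40 in ependymal cells. In cells with no microglia-marker UMI, an alternative chosen after seeing the data, it was 4 in NSCs and 102 in astrocytes. Leaving out 1 library gave 0 to 1642 in NSCs, 38 to 528 in astrocytes, 0 to 386 in ependymal cells and 0 to 293 in TAPs, each highest without cKO 1, and 0 to 2 in OPCs and oligodendrocytes, 0 to 1 in microglia, 0 to 3 in the PDCD10 list and 0 among the neighbours.

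The control level moved with the marker gate in TAPs (0.528 CPM), neuroblasts (0.273 CPM), ependymal cells (1.34 CPM) and OPCs (47.0 CPM), and at 5% mitochondrial counts in NSCs (1.12 CPM), ependymal cells (1.61 CPM) and mural cells (0 CPM). The difference between Prm1-marked and unmarked cells kept its sign in 17 alternatives, and turned in OPCs within the Pdgfra-led cluster (-0.020), an alternative chosen after seeing the data. Without 1 library it was 0.764 to 2.05 in NSCs, 1.25 to 1.79 in OPCs and 0.393 to 0.554 in astrocytes. Marking by at least 2 Prm1 UMIs gave no value in OPCs. The few UMIs of the gene in TAPs, neuroblasts, neurons and vascular cells limit the precision of their levels.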
